A study of Mus musculus with 36 samples.

Results

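The nuclear genes of oxidative phosphorylation were followed across the main olfactory epithelium (MOE), the vomeronasal organ (VNO) and the olfactory bulb (OB) of adult mice. Members were taken by gene symbol: every name that begins with Nduf, Uqcr, Cox4, Cox5, Cox6, Cox7, Cox8 or Atp5, together with Sdha, Sdhb, Sdhc, Sdhd and Cycs, and without symbols that end in -ps. The rule used no measured value, and it found 94 of the 24434 genes listed in every library. By the role of the protein, 36 of them were subunits of complex I, 8 were assembly factors of complex I, 4 were subunits of complex II, 8 of complex III, 1 was cytochrome c, 20 belonged to complex IV and 17 to the ATP synthase. Ndufa4 and Ndufa4l2 were counted with complex IV, where the Ndufa4 protein resides despite its name.

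Total RNA was sequenced from 36 pools of C57BL/6 mice, 3 pools for each of 12 groups, which combined the 3 tissues with 2 sexes and 2 kinds of housing. From weaning at 3 weeks to 6 months of age the mice lived 4 to a cage, in cages of 1 sex or of both sexes, so that each tissue had 4 groups: SF and SM, the females and males caged with their own sex (sex-separated), and CF and CM, those caged together (sex-combined). All animals shared 1 strain and 1 age, the labels name no allele or agent, and each library held the pooled RNA of several mice. The design asks how expression differs among the olfactory tissues, between the sexes, and with exposure to the other sex.

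Oxidative phosphorylation makes most of the ATP of a neuron. Complexes I and II pass electrons from NADH and succinate to ubiquinone, complex III hands them to cytochrome c, complex IV passes them to oxygen, and the ATP synthase uses the proton gradient built by complexes I, III and IV. A few subunits of complex IV are made from alternative genes, one used by most cells and the other by heart and skeletal muscle, lung or testis. The subunits encoded by mitochondrial DNA lie outside the symbol rule and were not analysed here.

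Levels are in FPKM, the fragments of a transcript scaled to its length in kilobases and to the mapped fragments of the library, with transcripts of a gene added together. The fragments behind the values, estimated from the confidence limits that accompany each FPKM, came to between 3006004 and 6429907 per library, and the median member rested on an estimated 333 fragments per library. These estimates lie below the aligned read pairs that the study reports for every library, so they are not counts of the reads. The tissues carried their own markers: the mean of Omp, a protein of mature olfactory neurons, was 35.1 FPKM in OB, 983 in MOE and 101 in VNO. Trpc2, the vomeronasal transduction channel, was at 43.0 FPKM in VNO, 0.938 in MOE and 0.199 in OB, and Gad1, which makes the transmitter of bulb interneurons, at 180 FPKM in OB, 1.36 in VNO and 0.236 in MOE. Summed over the 6 vomeronasal neuron genes found, Trpc2 among them, VNO libraries (111 to 138 FPKM) overlapped those of OB (81.3 to 112). MOE libraries held 21.3 to 30.9 FPKM, so this list as a whole sets VNO apart from MOE but not from OB. Some libraries stood apart. MOE-CM3, a sex-combined male pool, was the lowest of the 12 MOE libraries for 76 of 88 members tested within MOE, and likewise for 75.3% of all genes tested there, so values that change without it are also given without it. VNO-SF1 was the lowest VNO library for 31 of 88 members and 39.7% of all genes, and OB-SF1 the lowest OB library for 16 of 88 and 34.6%. MOE-SF2 had a summed level of gland genes of 32310 FPKM, against 5252 to 11560 in the other MOE libraries. In bulk tissue, fewer cells of a type and less RNA per cell cannot be told apart, and this holds for each comparison that follows. The study's RNA integrity numbers, a measure of intact RNA, were highest in the OB pools and lowest in the VNO pools, with no overlap between tissues. Tissue and RNA integrity therefore differ together, and the part of integrity in the tissue differences was not tested.

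Most members were expressed in all 3 tissues. Of the 94, 85 were above 0 in all 36 libraries and 68 had a mean of at least 10 FPKM in each tissue. The highest means in each tissue were those of Cox4i1, the common form of subunit 4 of complex IV, and Atp5b, the catalytic beta subunit of the ATP synthase, which differed by less than their spread. Cox4i1 was at 270 ± 46.1 FPKM (SD, n = 12) in MOE, 158 ± 20.0 in VNO and 413 ± 43.3 in OB, and Atp5b at 249 ± 34.5, 156 ± 10.1 and 414 ± 38.1. Within complex I the highest mean was that of Ndufb9 in VNO (69.7 ± 5.35) and OB (139 ± 14.1), but in MOE those of Ndufv3 (124 ± 19.3) and Ndufa3 (119 ± 20.9), which were level. Levels set side by side between genes are per transcript length.

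**Figure D1:**
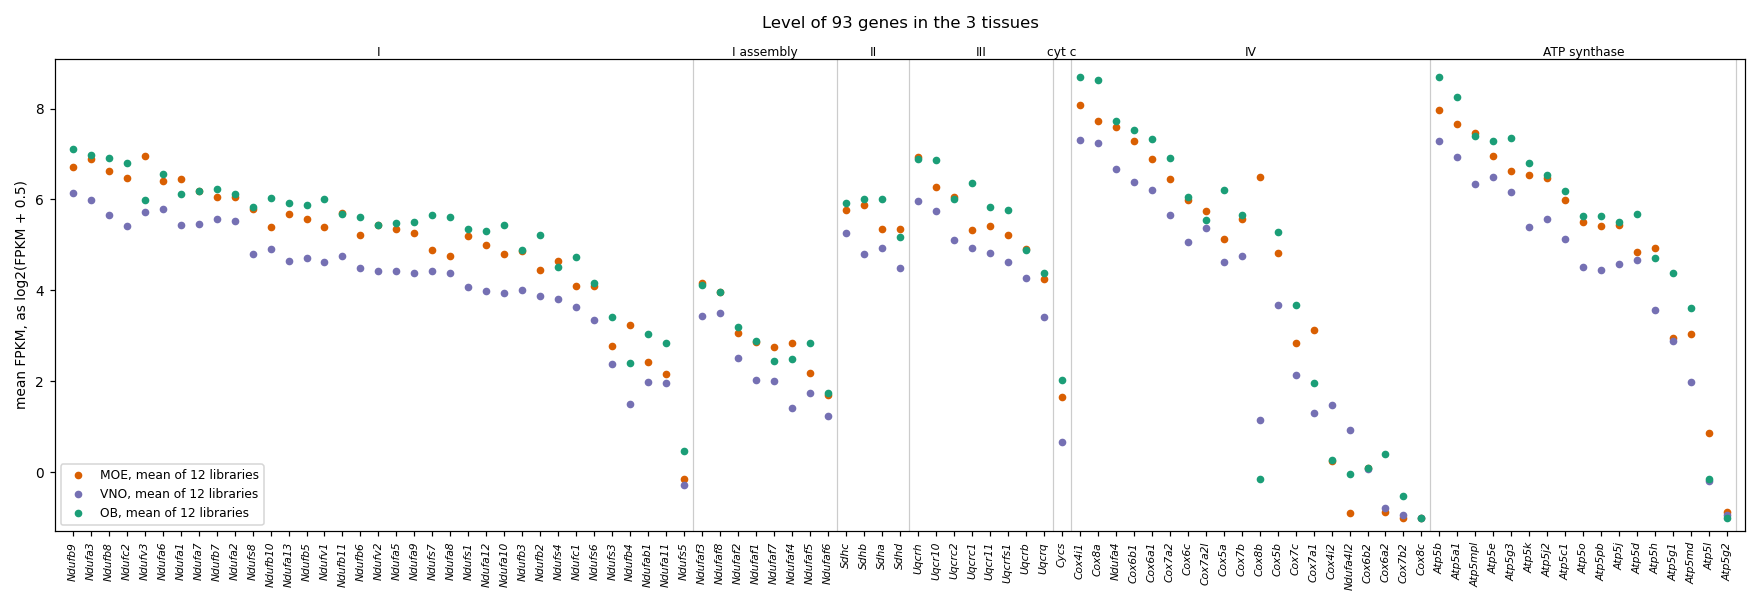
Mean level of 93 of the 94 genes, as log2(FPKM + 0.5) on the vertical axis, with genes along the horizontal axis grouped by complex and 1 coloured point per tissue (mean of 12 libraries). For most genes the OB point lies highest and the VNO point lowest, with Cox8b, Ndufv3 and Cox7a1 among those highest in MOE and Cox4i2 and Ndufa4l2 highest in VNO.

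Added together, the 94 members reached 6264 ± 610 FPKM in OB, 5031 ± 729 in MOE and 2885 ± 236 in VNO (SD, n = 12 each). The OB libraries ran from 5346 to 7008, the MOE libraries from 3122 to 5994 and the VNO libraries from 2504 to 3364. All 12 OB libraries lay above all VNO libraries. In MOE, 11 of 12 libraries lay above every VNO library, with 4548 the lowest of those 11, and MOE-CM3 at 3122 was the one inside the VNO range. Without MOE-CM3 the MOE mean was 5205. OB and MOE overlapped, with 8 OB libraries above every MOE library. As a share of the FPKM of all genes, the members made up 1.58% ± 0.151 in OB, 1.33% ± 0.154 in MOE and 0.771% ± 0.116 in VNO.

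The proportions among the complexes differed less than the levels. Complex I supplied 30.7% ± 0.304 of the members' FPKM in OB, 33.3% ± 0.331 in MOE and 32.7% ± 0.682 in VNO, and all OB libraries (30.2% to 31.2%) lay below all MOE libraries (32.7% to 34.0%). The ATP synthase supplied 27.6% ± 0.332 in OB, 25.8% ± 0.830 in MOE and 26.2% ± 0.722 in VNO. Complex IV supplied 28.4% ± 0.544 in OB, 27.1% ± 1.03 in MOE and 26.5% ± 0.700 in VNO. The mean share of complex III lay between 8.58% and 9.02% and that of complex II between 3.57% and 4.08% over the 3 tissues. These shares are descriptions and were not tested.

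**Figure D2:**
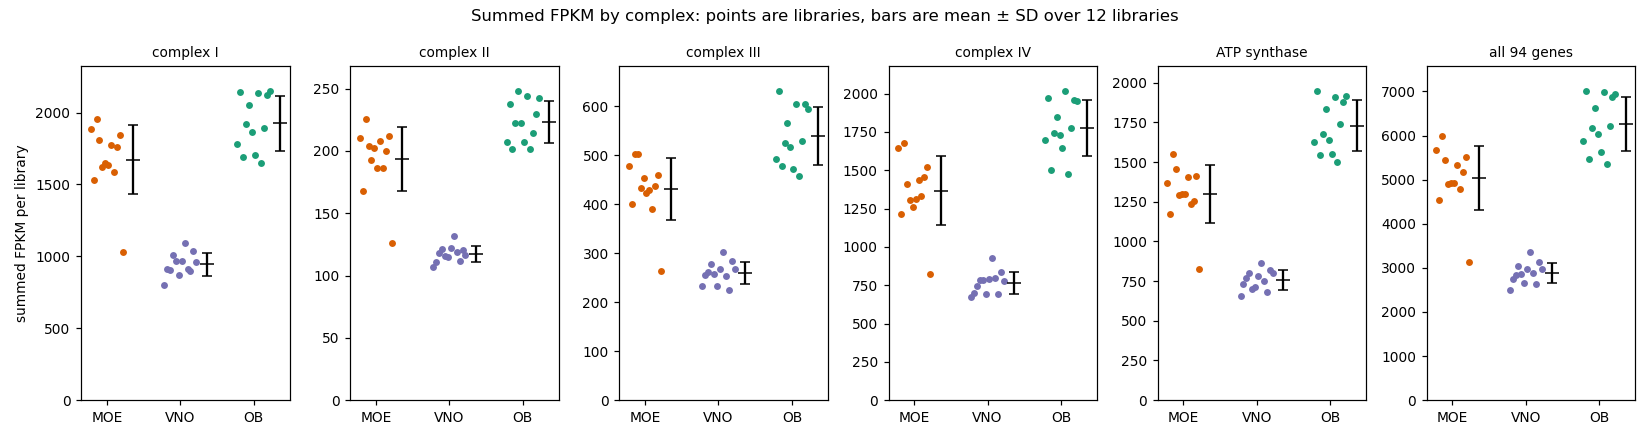
Summed FPKM per library (vertical axis, from 0) for complexes I to IV, the ATP synthase and all 94 genes, with the 12 libraries of each tissue as points and the mean ± SD as bars. In every panel the OB libraries lie above all VNO libraries, and the single low MOE point is MOE-CM3.

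Each gene was then tested between pairs of tissues with limma on log2(FPKM + 0.5), with p-values adjusted over all 14533 genes tested. The fit held 90 of the 94 members, the other 4 having a mean under 0.5 FPKM over the 36 libraries. The nearest member above that limit was Ndufs5 (0.531 FPKM) and the nearest below it Cox6a2 (0.314). Ndufs5, Ndufa4l2 and Atp5l reached the limit through a single tissue (OB, VNO and MOE in this order), and the counts that follow include them. A difference on this scale understates the change of a gene with a low level.

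MOE exceeded VNO for nearly all members. Of the 90 tested 87 were called, against 82.6% of all genes. Of these, 85 were higher in MOE, against 48.6% of all genes, and 2 were higher in VNO, against 34%. The 3 that did not pass the test were Atp5g1, Cox6b2 and Ndufs5. The median log2 difference, MOE minus VNO, was 0.76 over the members and 0.15 over all genes. At least 2-fold differences were called for 14 members towards MOE and 2 towards VNO, against 11.8% and 9.74% of all genes, and the 14 became 25 without MOE-CM3 (13.1% of all genes), 6 under quantile normalization (9.73%) and 5 under upper quartile scaling (8.36%). The 12 libraries of each tissue did not overlap for 24 members that were higher in MOE (15.8% of all genes) and 1 that was higher in VNO (19%), and without MOE-CM3 the 24 became 59 (31.4%). The choice of scaling changed the size of the shift: the median of all genes was 0.01 under quantile normalization and -0.08 under upper quartile scaling. Relative to these the members' median stood 0.61 above all genes in the values as deposited, 0.33 above under quantile normalization and 0.54 above under upper quartile scaling. Under quantile normalization 61 members were higher in MOE and 7 higher in VNO, against 42.8% and 41.2% of all genes. Under upper quartile scaling they numbered 75 and 3, against 37.3% and 47.4%. Glandular secretory transcripts such as the lipocalins took between 4.39% and 8.72% of all FPKM in the VNO libraries (median 7.90%). In the MOE libraries they took between 1.31% and 8.54% (median 2.26%), and their part in the difference was not tested.

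Nearly all members were also lower in VNO than in OB. Of the 90 tested 87 were called, against 85.8% of all genes. Higher in OB were 84 members, against 48% of all genes, and higher in VNO were 3, against 37.8%. The median log2 difference, VNO minus OB, was -1.05 over the members and -0.12 over all genes. At least 2-fold differences favored OB for 53 members (18.9% of all genes) and VNO for 3 (20.2%). Under quantile normalization these became 23 (17.6% of all genes) and 0 (19.5%). The 53 became 17 under upper quartile scaling (14.4% of all genes). Libraries did not overlap for 74 members higher in OB (34.3% of all genes) and 2 higher in VNO (28.2%). The members' median lay 0.92 below that of all genes as deposited, 0.70 below under quantile normalization and 0.84 below under upper quartile scaling.

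MOE and OB differed for fewer members, and in both directions. Of the 90 tested 57 were called, against 85% of all genes. Higher in OB were 46, against 39.3% of all genes, higher in MOE were 11, against 45.7%, and 33 did not pass the test. The median log2 difference, MOE minus OB, was -0.22 over the members and 0.07 over all genes. At least 2-fold differences numbered 2 towards MOE (21% of all genes) and 3 towards OB (17.3%), and the 3 became 9 under quantile normalization (18%). Libraries did not overlap for 18 members higher in OB, at 26.4% of all genes, and 2 higher in MOE, at 24.7%. Within single groups the number called went from 31 among sex-combined females and 32 among sex-separated males to 54 among sex-combined males (71.5% of all genes). Without MOE-CM3, which left 2 MOE libraries there, the 54 became 49 (74.6% of all genes). The shares of all genes in the other groups are not given here, so these counts are not read as a difference between groups. Of the 54, 4 were higher in MOE, and of the 49, 13 were. The 3 tissue comparisons use the same libraries in pairs and are not independent of one another. In the means, 68 of the 90 members had the order OB, MOE, VNO, 19 had MOE, OB, VNO, 2 had VNO, OB, MOE and 1 had MOE, VNO, OB.

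**Figure D3:**
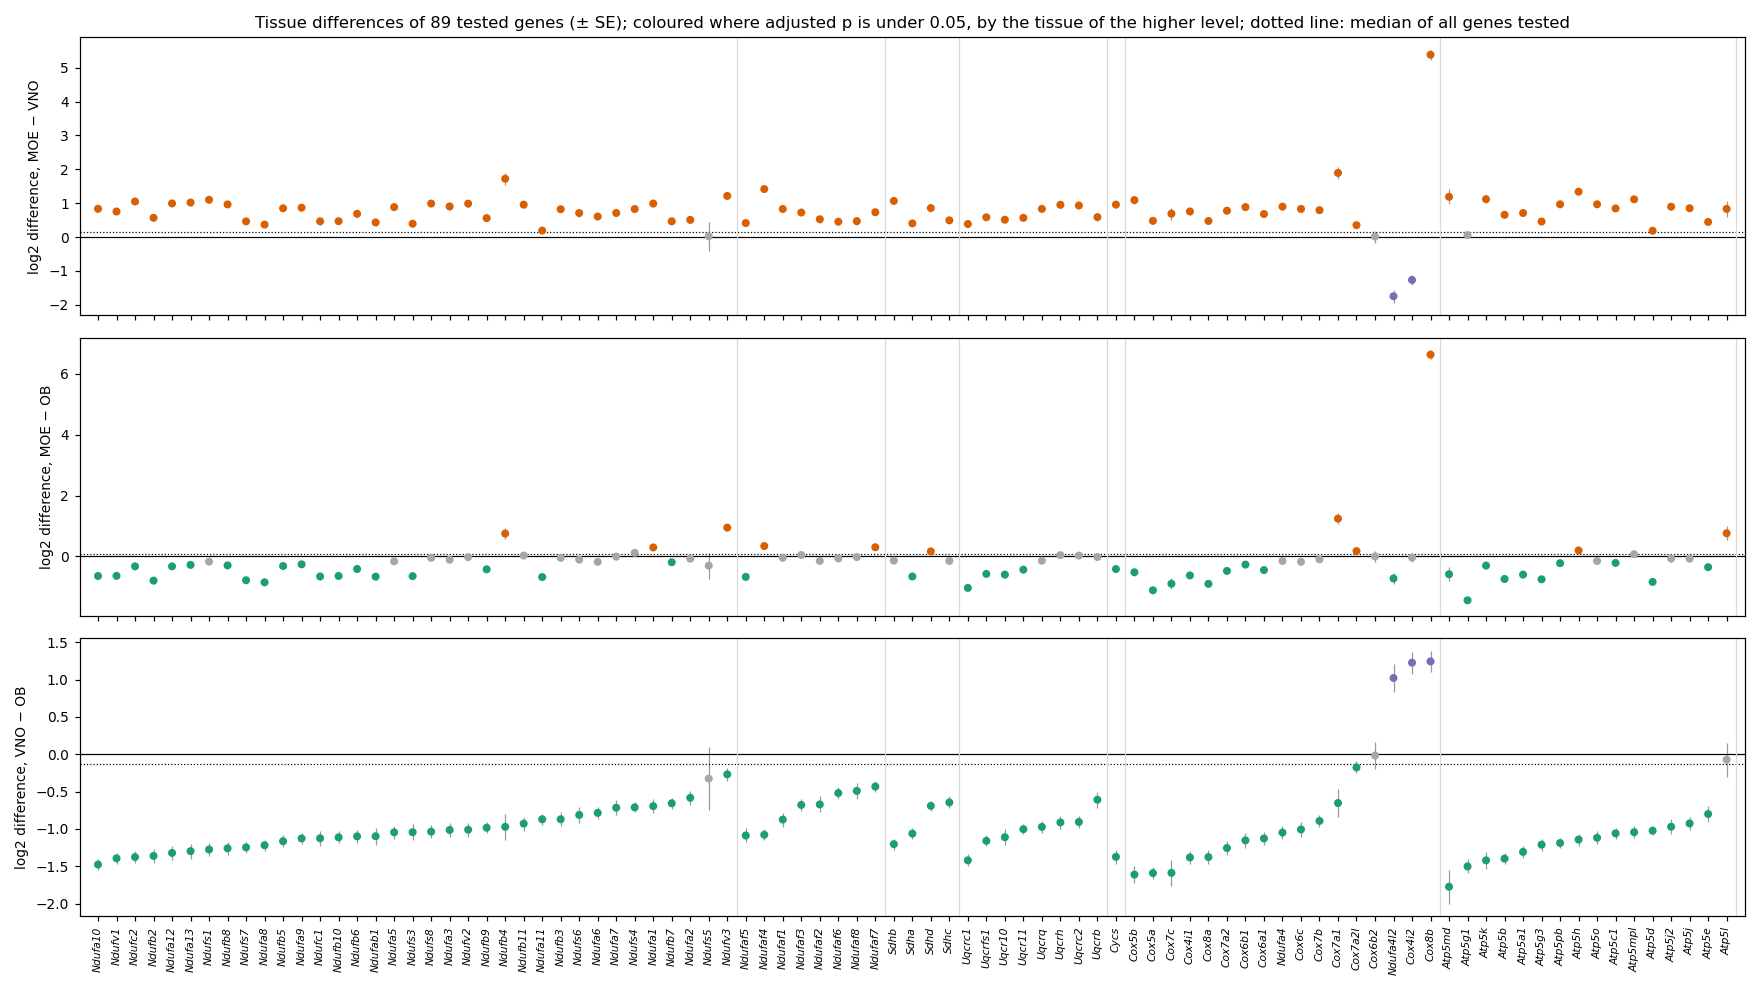
Log2 difference between tissues for 89 of the 90 tested genes (vertical axis, ± SE), grouped by complex along the horizontal axis, with points colored where the adjusted p is under 0.05 and the median of all genes as a dotted line. MOE against VNO lies above 0 except for Ndufa4l2 and Cox4i2, VNO against OB lies below 0 except for Cox8b, Cox4i2 and Ndufa4l2, and MOE against OB is spread around a median of -0.22.

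In complex I, which takes electrons from NADH, 35 of 36 subunits were higher in MOE than in VNO, 35 were lower in VNO than in OB, and 20 were lower and 3 higher in MOE than in OB. For this and each complex below, the shares of all genes were 48.6% higher and 34% lower in MOE than in VNO. They were 48% lower and 37.8% higher in VNO than in OB, with 34.3% lower without overlap. Between MOE and OB, 39.3% of all genes were lower and 45.7% higher in MOE. Ndufv1, which holds the flavin that accepts the electrons, ran from 24.9 to 49.2 FPKM in MOE (median 43.5), from 20.8 to 27.9 in VNO (24.1) and from 51.2 to 73.5 in OB (64.3). Its OB libraries lay above all others, and its log2 difference was 0.76 ± 0.08 (SE) for MOE minus VNO, -0.64 ± 0.08 for MOE minus OB and -1.39 ± 0.08 for VNO minus OB. Ndufs1, the largest iron-sulfur subunit, was 1.10 ± 0.09 higher in MOE than in VNO with no overlap of libraries, whereas its difference of -0.17 ± 0.09 from OB did not pass the test (adjusted p = 0.0616, limma).

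Ndufv3, an accessory subunit of the NADH-binding module, broke the order of its complex. Its gene lies at chr17:31657060-31668270 (mm9). MOE libraries held 74.9 to 145 FPKM (median 129), VNO libraries 43.7 to 65.2 (51.3) and OB libraries 54.1 to 74.8 (63.0). All 12 MOE libraries exceeded every VNO and OB library, although the lowest MOE library and the highest OB library nearly met. The log2 difference was 1.22 ± 0.08 against VNO (limma, adjusted p = 6.54e-14) and 0.95 ± 0.08 against OB (1.22e-11), and VNO lay 0.27 ± 0.08 below OB, a difference that was 0.08 in the other direction under quantile normalization and 0.04 under upper quartile scaling. Of its 2 listed transcripts, the short one of 493 bases carried 59.5 ± 6.18 FPKM in OB, 118 ± 18.6 in MOE and 49.2 ± 6.37 in VNO. The long one of 1582 bases carried 3.85 ± 0.592 in OB, 6.08 ± 0.846 in MOE and 3.45 ± 0.477 in VNO, so both transcripts were highest in MOE.

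Ndufb4, a subunit of the membrane arm, showed the largest complex I difference between MOE and VNO. It ran from 4.80 to 18.2 FPKM in MOE (median 7.86), from 0.631 to 3.88 in VNO (2.24) and from 3.53 to 6.30 in OB (4.89). MOE lay wholly above VNO, with a log2 difference of 1.72 ± 0.18, and overlapped OB, with 0.75 ± 0.18. Ndufb4 is one of 24 members with at least 1 near-identical processed pseudogene, a copy that can take away or blur reads, so its level is uncertain. Ndufs5, a small subunit of the complex I base, was listed at 0 in 11 MOE, 11 VNO and 10 OB libraries, with the highest value of 5.59 FPKM in OB. Complex I needs this subunit in every cell, so no more is said of it than that it is listed at 0, and Ndufs5 too has such a copy.

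The 8 assembly factors, which build complex I without staying in it, were all higher in MOE than in VNO and all lower in VNO than in OB. Between MOE and OB they differed less, with a median of -0.03, 2 higher in MOE and 1 lower. Ndufaf4 stood out in MOE at 4.18 to 7.38 FPKM (median 6.85), against 1.68 to 2.58 in VNO (2.2) and 3.95 to 5.77 in OB (5.26). Its MOE and VNO libraries did not overlap, with a log2 difference of 1.42 ± 0.08 (limma, adjusted p = 9.35e-17), while MOE exceeded OB by 0.34 ± 0.08 with overlap. Ndufaf5 went the other way between MOE and OB, at -0.67 ± 0.09, and its libraries did not overlap. The highest factors in each tissue were Ndufaf3 (17.4 ± 2.81 FPKM in MOE and 16.7 ± 1.89 in OB) and Ndufaf8 (15.2 ± 3.66 and 15.2 ± 1.88), which differed by less than their spread, and the lowest was Ndufaf6.

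Complex II, which is also the succinate dehydrogenase of the tricarboxylic acid cycle, was higher in MOE than in VNO and lower in VNO than in OB for all 4 subunits. Sdhb, the iron-sulfur subunit, ran from 39.7 to 68.7 FPKM in MOE (median 61.0), from 23.0 to 31.9 in VNO (27.5) and from 55.5 to 70.4 in OB (65.1). MOE and VNO did not overlap for it, at a log2 difference of 1.07 ± 0.07, and MOE minus OB was -0.14 ± 0.07, short of the test (adjusted p = 0.0785, limma). Sdha, the flavin subunit, was lower in MOE than in OB, at -0.66 ± 0.07, without overlap, and Sdhd, a membrane anchor, was 0.17 ± 0.07 higher in MOE than in OB. Sdhc, the other anchor, did not pass the test between MOE and OB (-0.15 ± 0.08). The first statement depends on the scaling: under quantile normalization MOE minus VNO was -0.10 for Sdha and -0.04 for Sdhc, in place of 0.41 and 0.50.

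All 8 complex III members were higher in MOE than in VNO and lower in VNO than in OB. Uqcrc1 and Uqcrc2, the paired core proteins, parted between MOE and OB. Uqcrc1 ran from 26.8 to 47.8 FPKM in MOE (median 41.2), from 25.1 to 35.1 in VNO (30.3) and from 68.5 to 89.8 in OB (81.0). Uqcrc2 ran from 39.4 to 76.2 (66.1), from 30.9 to 39.0 (34.2) and from 55.2 to 73.6 (62.4). OB therefore stood apart for Uqcrc1 (MOE minus OB -1.03 ± 0.08) but not for Uqcrc2 (0.03 ± 0.08, adjusted p = 0.761, limma), whose difference became -0.14 and passed the test under quantile normalization. MOE minus VNO was 0.39 ± 0.08 for Uqcrc1, turning to -0.12 under quantile normalization, and 0.93 ± 0.08 for Uqcrc2. Uqcrfs1, the Rieske iron-sulfur protein, was at -0.57 ± 0.07 for MOE minus OB and 0.59 ± 0.07 for MOE minus VNO. Uqcrh, the hinge protein, had the highest mean of the complex in each tissue, level in OB with Uqcr10 (116 ± 19.1 FPKM), at 118 ± 16.5 FPKM in OB, 122 ± 18.5 in MOE and 62.0 ± 6.35 in VNO. Cyc1, the cytochrome of the complex, lies outside the symbol rule and was at 58.3 FPKM in OB, 26.8 in MOE and 18.6 in VNO, with MOE minus OB at -1.12 ± 0.08.

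Cycs, the somatic cytochrome c that carries electrons from complex III to complex IV, was listed far below its neighbors in the chain, at 1.44 to 3.65 FPKM in MOE (median 2.72), 0.715 to 1.51 in VNO (1.11) and 2.87 to 4.22 in OB (3.58). Its VNO and OB libraries did not overlap. The log2 difference was 0.96 ± 0.09 for MOE minus VNO, -0.41 ± 0.09 for MOE minus OB and -1.37 ± 0.09 for VNO minus OB. Cycs has 3 near-identical processed pseudogenes, so its level relative to other members is uncertain.

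Complex IV, the oxidase that reduces oxygen, held, with Cox8b, the largest differences of MOE from the other tissues and both members that were higher in VNO than in MOE. Of its 20 members 17 were tested, with 14 higher and 2 lower in MOE than in VNO, 13 lower and 3 higher in VNO than in OB, and 9 lower and 3 higher in MOE than in OB. Its common subunits followed the general order. Cox4i1 ran from 167 to 334 FPKM in MOE (median 265), from 124 to 203 in VNO (156) and from 331 to 475 in OB (421), and its log2 difference was 0.76 ± 0.09 for MOE minus VNO and -0.62 ± 0.09 for MOE minus OB. Cox5a, which with Cox4 and Cox5b forms the matrix side of the enzyme, was the member of complex IV furthest below OB in MOE: 22.8 to 44.2 FPKM in MOE (33.9), 17.9 to 28.2 in VNO (24.2) and 62.4 to 82.1 in OB (75.5). All OB libraries were above all others, at -1.11 ± 0.08 for MOE minus OB and -1.59 ± 0.08 for VNO minus OB, whereas MOE minus VNO was 0.48 ± 0.08 and -0.01 under quantile normalization. Cox5b was at -1.61 ± 0.12 for VNO minus OB and Cox7c, a small membrane subunit with 4 near-identical processed pseudogenes, at -1.59 ± 0.18.

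Cox8b, the form of subunit 8 known from heart, skeletal muscle and brown fat, was high in MOE and low in the other tissues. It lies at chr7:148084841-148086345 (mm9). MOE libraries held 53.4 to 136 FPKM (median 82.0), VNO libraries 0.773 to 2.97 (1.71) and OB libraries 0.244 to 0.768 (0.30). No MOE library came near either of the others, and the VNO libraries lay above the OB libraries with ranges that nearly met at 0.773 and 0.768. In OB the median library held an estimated 1 fragment of this gene, and in VNO 5.5. The log2 difference was 5.38 ± 0.14 for MOE minus VNO (limma, adjusted p = 4.35e-24), 6.63 ± 0.14 for MOE minus OB (4.62e-27) and 1.24 ± 0.14 for VNO minus OB (3.67e-09). Cox8a, the form made by most cells, showed the general order instead, at 140 to 252 FPKM in MOE (219), 122 to 179 in VNO (154) and 306 to 464 in OB (404). Its MOE and OB libraries did not overlap (-0.90 ± 0.09), and MOE minus VNO was 0.48 ± 0.09, turning to -0.15 under quantile normalization. Cox8b made up 29.5% ± 4.78 of the summed FPKM of both forms in MOE (23.2% to 38.8%), 1.15% ± 0.565 in VNO and 0.103% ± 0.0487 in OB. Both forms together came to 393 ± 49.2 FPKM in OB, 301 ± 51.8 in MOE and 153 ± 19.2 in VNO.

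Cox7a1, the heart and muscle form of subunit 7a, went in the same direction with smaller differences. It held 5.41 to 10.8 FPKM in MOE (median 8.42), 0.479 to 2.91 in VNO (1.78) and 1.57 to 6.88 in OB (3.19). MOE lay above VNO without overlap (1.90 ± 0.18, limma, adjusted p = 1.13e-10) and above OB with overlap (1.24 ± 0.18). Its common partner Cox7a2 was at 120 ± 13.4 FPKM in OB, 86.9 ± 14.1 in MOE and 50.1 ± 7.14 in VNO, with MOE minus OB at -0.48 ± 0.09 and no overlap. Cox7a1 made up 8.72% ± 0.871 of the pair in MOE, 3.81% ± 1.59 in VNO and 2.72% ± 1.14 in OB. Cox7a2l, which helps to join complexes III and IV into supercomplexes, stood at 46.5 ± 4.18 FPKM in OB, 53.1 ± 8.75 in MOE and 41.1 ± 4.21 in VNO, with MOE minus VNO at 0.35 ± 0.08 and VNO minus OB at -0.18 ± 0.08. Under quantile normalization these became -0.17 and 0.21, both past the test in the opposite direction.

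Cox6a2, the third muscle form, did not share this pattern. It was listed at 0 in 8 MOE and 8 VNO libraries, reached at most 0.156 and 0.322 FPKM there, and ran from 0.272 to 1.35 in OB, below the limit for the test. Its common form Cox6a1 was at 161 ± 19.0 FPKM in OB, 119 ± 18.8 in MOE and 73.2 ± 8.60 in VNO. Markers of tissues in which Cox8b and Cox7a1 are known were counted beside them. Of the 10 skeletal muscle genes, the number with a mean of at least 1 FPKM was 0 for MOE, 1 for VNO and 2 for OB. Sums of this list ran from 0.613 to 3.60 FPKM among MOE libraries, from 17.8 to 27.8 among VNO libraries and from 4.45 to 7.42 among OB libraries. The VNO sum thus came mainly from 1 gene and does not by itself show muscle there. Ckm, the muscle creatine kinase, had a mean of 0.125 FPKM in MOE. Of 6 slow muscle and heart genes only Tnnt1, at 8.31 ± 1.67 FPKM, had a mean of at least 1 in MOE, and the sum of the list was 5.71 to 11.7 FPKM in MOE, 0.605 to 1.52 in VNO and 2.08 to 3.63 in OB. Of 5 brown fat genes, Ucp1, the uncoupling protein that defines the tissue, had a mean of 0.0496 FPKM in MOE, while Cidea, a lipid droplet protein, was at 0.936 ± 0.293 FPKM in OB, 18.3 ± 3.73 in MOE and 8.64 ± 1.19 in VNO. The part of these lists in the level of Cox8b was not tested.

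The starts of Cox8b and Cox7a1 and of their common partners are shown because these pairs also differ in CG dinucleotides, which the symbol rule did not use. Printed are the 250 bases before the start, 5′ to 3′, from RefSeq (GRCm38.p6), with each CG in capitals, for Cox8b (chr7:140900447-140900696 on the minus strand), Cox8a (chr19:7217617-7217866 on the minus strand), Cox7a1 (chr7:30183921-30184170 on the plus strand) and Cox7a2 (chr9:79759854-79760103 on the minus strand).
Cox8b: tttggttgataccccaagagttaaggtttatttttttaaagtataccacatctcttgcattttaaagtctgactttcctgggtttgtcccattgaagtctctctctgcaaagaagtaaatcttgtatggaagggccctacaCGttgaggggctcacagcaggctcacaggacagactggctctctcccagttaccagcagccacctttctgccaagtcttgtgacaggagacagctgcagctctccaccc
Cox8a: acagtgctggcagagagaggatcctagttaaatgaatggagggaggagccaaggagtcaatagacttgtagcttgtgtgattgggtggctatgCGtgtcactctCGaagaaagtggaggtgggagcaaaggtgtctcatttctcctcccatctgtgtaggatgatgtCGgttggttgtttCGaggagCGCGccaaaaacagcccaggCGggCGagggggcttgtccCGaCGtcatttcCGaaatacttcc
Cox7a1: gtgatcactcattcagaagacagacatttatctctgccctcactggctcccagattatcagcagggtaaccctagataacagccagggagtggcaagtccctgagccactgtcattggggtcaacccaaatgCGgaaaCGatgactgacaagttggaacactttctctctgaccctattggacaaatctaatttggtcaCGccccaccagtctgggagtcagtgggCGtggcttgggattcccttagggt
Cox7a2: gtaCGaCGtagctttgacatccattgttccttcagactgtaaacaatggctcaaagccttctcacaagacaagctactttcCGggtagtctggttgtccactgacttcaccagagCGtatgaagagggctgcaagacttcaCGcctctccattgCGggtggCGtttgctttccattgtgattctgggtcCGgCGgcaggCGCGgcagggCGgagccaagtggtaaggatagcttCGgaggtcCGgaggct
Cox8b held 1 CG and Cox8a 11, and Cox7a1 held 4 and Cox7a2 14. Other pairs did not all share this: Cox6b2 held 8 and Cox6b1 14, but Cox7b2 held 9 and Cox7b 5. Atp5g1 and Atp5g3 held 15 each. The table gave a promoter for 77 of the 94 members, whose median was 15 CG in 250 bases (1 to 35) against 6 over all 32851 promoters. Members were counted at 1 promoter per gene, and the 32851 promoters were not reduced in this way. Cox8b was thus at the lowest count among the members and Cox8a below their median.

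Cox4i2 and Ndufa4l2 showed the opposite order, with VNO highest. Cox4i2, the form of subunit 4 known from lung, lies at chr2:152579909-152590773 (mm9) and held 0.240 to 1.10 FPKM in MOE (median 0.733), 1.38 to 3.52 in VNO (2.12) and 0.326 to 1.14 in OB (0.737). All VNO libraries exceeded all others, at -1.26 ± 0.15 for MOE minus VNO (limma, adjusted p = 4.22e-09) and 1.23 ± 0.15 for VNO minus OB (5.57e-09), and MOE minus OB was -0.04 ± 0.15 (0.818). Ndufa4l2, a relative of Ndufa4 that is known to rise in low oxygen, lies at chr10:126951995-126954210 (mm9). It was listed at 0 in 11 MOE libraries, 1 VNO library and 5 OB libraries, with highest values of 0.436, 2.77 and 0.992 FPKM and medians of 0, 1.38 and 0.598. Its VNO libraries were higher than those of MOE and OB in the fit (-1.75 ± 0.19 for MOE minus VNO and 1.02 ± 0.19 for VNO minus OB), with overlap in both. Only in VNO was its mean above the limit of 0.5 FPKM (1.39, against 0.0363 in MOE and 0.467 in OB). Ndufa4l2 thus entered the test through the tissue where it is high, and its calls add no support of their own. Cox4i2 and Ndufa4l2 are minor forms: in VNO, Cox4i2 made up 1.45% ± 0.397 of the Cox4 pair and Ndufa4l2 1.36% ± 0.656 of the pair with Ndufa4.

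Genes of smooth muscle and pericytes, cells that can express both, moved with them in part. The summed level of the 9 listed genes was 325 to 431 FPKM in VNO, 107 to 208 in MOE and 16.3 to 22.1 in OB. Acta2, smooth muscle actin, was at 136 ± 14.7 FPKM in VNO, 25.6 ± 4.67 in MOE and 1.40 ± 0.211 in OB, and Myh11, smooth muscle myosin, at 76.9 ± 8.85, 2.91 ± 0.611 and 0.621 ± 0.103. Rgs5, a pericyte gene, was highest in MOE (99.98 ± 15.8 FPKM) and lower in VNO (24.1 ± 1.24). The part of these cells in the 2 genes was not tested.

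**Figure D4:**
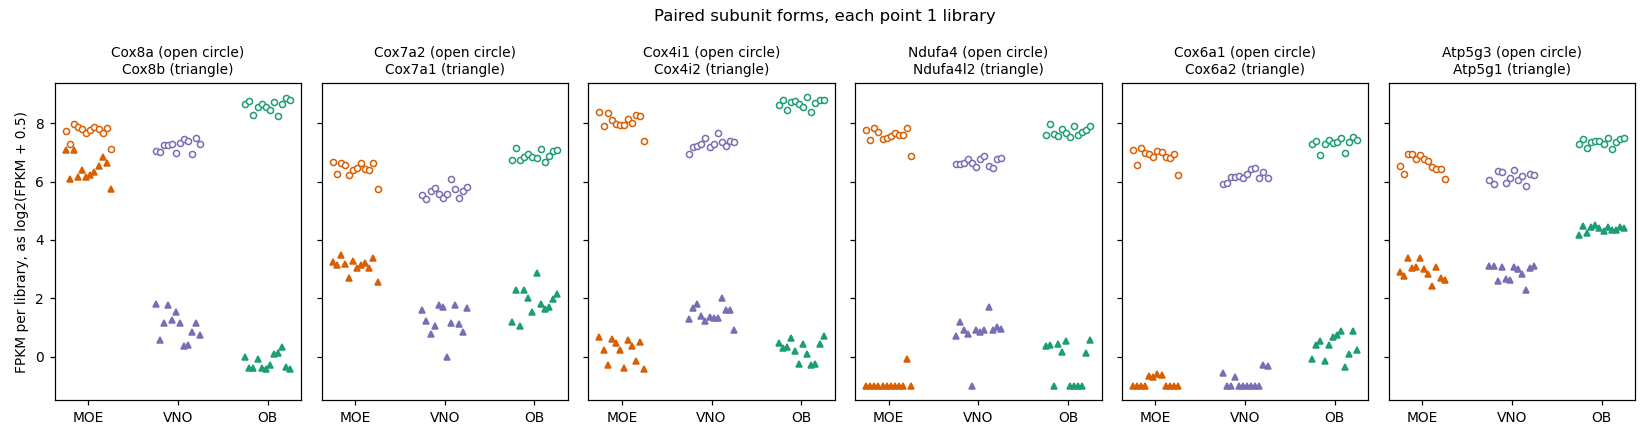
FPKM per library as log2(FPKM + 0.5) (vertical axis) for 6 pairs of alternative subunits in the 3 tissues, with the more abundant form as open circles and the other as triangles. The Cox8b triangles come close to the Cox8a circles in MOE (23.2% to 38.8% of the pair) and lie far below them in VNO and OB, and the Cox4i2 and Ndufa4l2 triangles are highest in VNO.

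The remaining complex IV alternatives were at or near 0. Cox8c, a testis form, was listed at 0 in all 36 libraries, and Cox7b2, another testis form, in 12 MOE, 10 VNO and 3 OB libraries. Cox6b2, also known from testis, had means of 0.560 ± 0.349 FPKM in OB, 0.559 ± 0.324 in MOE and 0.547 ± 0.326 in VNO, and its common partner Cox6b1 had 185 ± 22.7, 156 ± 33.5 and 82.7 ± 8.84 in this order of tissues. Ndufa4, the common form opposite Ndufa4l2, was at 211 ± 22.2 FPKM in OB, 192 ± 30.8 in MOE and 102 ± 9.45 in VNO, and its difference of -0.15 ± 0.09 between MOE and OB did not pass the test. Cox7b, a small subunit needed for assembly, was likewise not called between MOE and OB (-0.10 ± 0.08), and lay 0.80 ± 0.08 above VNO in MOE with no overlap.

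In the ATP synthase, 15 of 16 tested members were higher in MOE than in VNO, 15 were lower in VNO than in OB, all 15 without overlap of libraries, and 10 were lower and 2 higher in MOE than in OB. The head of the enzyme is built from alpha and beta subunits. Atp5b ran from 158 to 296 FPKM in MOE (median 257), from 139 to 173 in VNO (155) and from 356 to 462 in OB (411). Atp5a1, the alpha subunit, ran from 126 to 241 (205), from 97.4 to 141 (122) and from 264 to 337 (303). For both, all OB libraries exceeded all others, whereas MOE and VNO overlapped. MOE minus OB was -0.74 ± 0.08 for Atp5b and -0.60 ± 0.09 for Atp5a1, and MOE minus VNO was 0.66 ± 0.08 and 0.71 ± 0.09. Atp5c1, the central stalk, was less far below OB in MOE (-0.21 ± 0.08) and lay above VNO without overlap (0.85 ± 0.08).

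Atp5g1, one of 3 genes that encode the same c subunit of the membrane rotor, was the member furthest below OB in MOE. It lies at chr11:95934107-95937008 (mm9) and held 4.87 to 9.91 FPKM in MOE (median 7.29), 4.43 to 8.12 in VNO (7.58) and 17.3 to 22.3 in OB (20.9). OB lay apart from both, at -1.44 ± 0.09 for MOE minus OB (limma, adjusted p = 7.22e-15) and -1.50 ± 0.09 for VNO minus OB, and MOE minus VNO was 0.06 ± 0.09 (0.55), the only ATP synthase member short of that test, with -0.20 under quantile normalization and -0.22 under upper quartile scaling. Atp5g3 was the highest listed of the 3 genes, at 164 ± 13.4 FPKM in OB, 98.7 ± 18.7 in MOE and 70.9 ± 9.13 in VNO. Its MOE minus VNO difference of 0.46 ± 0.08 became -0.05 under quantile normalization. Atp5g2 was listed at 0 in 9 MOE, 10 VNO and 12 OB libraries, and it has 2 near-identical processed pseudogenes and Atp5g1 has 1, so the shares of the 3 genes are uncertain.

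Atp5h, a subunit of the peripheral stalk, had the largest difference between MOE and VNO within the ATP synthase, at 17.0 to 41.3 FPKM in MOE (median 29.8) against 8.62 to 14.2 in VNO (11.3), with no overlap (1.34 ± 0.08), and it was also higher in MOE than in OB (0.20 ± 0.08). Atp5md, a small membrane subunit, was listed at 0 in 1 VNO library, ran to 5.02 FPKM there and from 7.76 to 15.3 in OB, and was called lower in VNO than in OB without overlap (-1.78 ± 0.23). Both have 3 near-identical processed pseudogenes, and Atp5l, with 9, was at 0.400 ± 0.148 FPKM in OB, 1.32 ± 1.11 in MOE and 0.378 ± 0.256 in VNO. Atpif1, the inhibitor that stops the enzyme from running backwards and lies outside the symbol rule, was at 32.9 ± 3.06 FPKM in OB, 43.5 ± 10.4 in MOE and 17.6 ± 2.51 in VNO, higher in MOE than in VNO (1.25 ± 0.10, no overlap) and than in OB (0.37 ± 0.10).

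Members that move together were searched for shared letters in the 250 bases before the start. NRF1, a factor known for many respiratory chain genes, binds a palindrome, searched here as GCGC, any 2 bases and GCGC again, which reads alike on both strands, and an ETS-type motif, known for the GABP factor, was searched as CCGGAAG on both strands. The first was found for 15 of 77 members (19.5%) and in 4.98% of all promoters, the second for 13 (16.9%) and in 6.91%, and 3 members held both. Members were counted at 1 promoter per gene and all promoters by every listed entry, so the shares are not of like units. Members have more CG than other promoters, and the motifs are rich in CG. Of the 4 members with more than 1 copy of the first (Cox6a1, Ndufb4, Ndufv2 and Sdha), Cox6a1 and Sdha are shown as examples, with the motif in capitals, at chr5:115348959-115349208 on the minus strand and chr13:74350241-74350490 on the minus strand (RefSeq, GRCm38.p6).
Cox6a1: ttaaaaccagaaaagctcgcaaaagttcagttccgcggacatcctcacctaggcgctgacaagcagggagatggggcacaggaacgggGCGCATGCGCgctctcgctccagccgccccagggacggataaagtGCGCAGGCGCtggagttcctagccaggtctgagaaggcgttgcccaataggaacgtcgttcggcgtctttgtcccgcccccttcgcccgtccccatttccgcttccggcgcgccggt
Sdha: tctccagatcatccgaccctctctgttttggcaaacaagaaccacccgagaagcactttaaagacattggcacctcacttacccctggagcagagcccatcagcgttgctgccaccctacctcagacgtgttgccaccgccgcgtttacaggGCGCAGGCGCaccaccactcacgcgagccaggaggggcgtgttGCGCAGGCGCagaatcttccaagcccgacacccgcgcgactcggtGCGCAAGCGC
The copies begin 162 and 117 bases before the start of Cox6a1, and 98, 55 and 10 bases before that of Sdha. A match is a description of the letters and not a bound site. Nrf1, the gene of the factor, was at 4.31 ± 0.542 FPKM in OB, 9.56 ± 1.52 in MOE and 4.83 ± 0.443 in VNO, with MOE above VNO (0.90 ± 0.08) and OB (1.05 ± 0.08) and no overlap with either.

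Other genes of mitochondrial energy supply were counted from fixed lists for each comparison. Of all genes tested, 48.6% were higher and 34% lower in MOE than in VNO. In VNO, 37.8% were higher and 48% lower than in OB, and in MOE 45.7% were higher and 39.3% lower than in OB. Of 41 tested assembly factors outside the symbol rule, 34 were higher in MOE than in VNO and 2 lower, 35 were lower in VNO than in OB and 2 higher, and 12 were higher and 19 lower in MOE than in OB. Surf1, needed to build complex IV, was listed at 0 in 11 VNO libraries and ran from 11.7 to 23.99 FPKM in MOE and from 15.9 to 23.0 in OB. Sco2, which delivers copper to complex IV, was listed at 0 in 11 VNO and 9 OB libraries and ran from 4.30 to 10.8 FPKM in MOE. As with Ndufs5, these are genes that every cell uses, and no fold is given for them. Towards VNO the largest differences were those of Cox15, an enzyme of heme A synthesis (-0.46 ± 0.07 for MOE minus VNO), and Atpaf1, an ATP synthase assembly factor (-0.20 ± 0.09).

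The 17 genes of the tricarboxylic acid cycle and pyruvate dehydrogenase gave 14 higher in MOE than in VNO, 15 lower in VNO than in OB and 13 lower in MOE than in OB. Idh3a, a subunit of isocitrate dehydrogenase, was at 38.3 ± 3.60 FPKM in OB, 16.2 ± 2.36 in MOE and 12.6 ± 0.804 in VNO, and Pdhx and Pdhb, of the pyruvate dehydrogenase complex, had the largest differences between MOE and VNO (1.27 ± 0.08 and 1.26 ± 0.07). Of 17 glycolysis genes, 7 were higher and 7 lower in MOE than in VNO (48.6% and 34% of all genes). Lower than in OB were 15 in MOE (39.3% of all genes) and 14 in VNO (48%). Eno2, the neuronal enolase, was at 127 ± 9.01 FPKM in OB, 3.70 ± 0.623 in MOE and 3.40 ± 0.307 in VNO, and Hk2, an inducible hexokinase, went the other way (2.59 ± 0.06 for MOE minus OB). Of 16 carriers and outer membrane proteins, 14 were higher in MOE than in VNO and all 16 lower in VNO than in OB. Slc25a4, an exchanger of ADP and ATP, was the 1 lower in MOE than in VNO, while 1 did not pass the test, and it was at 344 ± 33.9 FPKM in OB, 72.1 ± 10.8 in MOE and 85.5 ± 6.85 in VNO, whereas its sister Slc25a5 was 1.13 ± 0.07 higher in MOE than in VNO.

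Of 15 regulators of mitochondrial biogenesis, 10 were higher and 3 lower in MOE than in VNO (48.6% and 34% of all genes). In VNO, 9 were lower and 2 higher than in OB (48% and 37.8% of all genes). In MOE, 5 were higher and 8 lower than in OB (45.7% and 39.3% of all genes). Tfb1m, a mitochondrial rRNA methyltransferase, was listed at 0 in 6 VNO libraries and all 12 OB libraries, and ran from 1.93 to 4.53 FPKM in MOE. Esrrg and Esrra, nuclear receptors that act on respiratory genes, were lowest in VNO and highest in OB (-1.58 ± 0.08 and -1.57 ± 0.08 for VNO minus OB). Pprc1, a related coactivator, was higher in VNO than in MOE (-0.70 ± 0.06 for MOE minus VNO).

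Sex and housing were compared within each tissue, where 88 members were tested, with 3 pools per group. By limma, 0 members were called in all 15 comparisons, and few genes of any kind were. In MOE, the share of all genes called was 0.102% for SF against SM, 0.0436% for CF against CM, 0.0363% for the interaction of sex and housing, 0.0509% for SF against CF and 0.0654% for SM against CM. Members with an unadjusted p under 0.05 numbered 4, 2, 9, 3 and 10 of 88 in this order, beside 4.16%, 1.75%, 4.59%, 2.04% and 6.94% of all genes. In VNO the shares of all genes were 0.0722%, 0.0433%, 0%, 0% and 0%, and the members with an unadjusted p under 0.05 numbered 3, 4, 4, 11 and 1, beside 8.8%, 3.94%, 5.26%, 11% and 2.33% of all genes. In OB the shares were 0.0391%, 0.0469%, 0.00782%, 0.00782% and 0%, and those members numbered 1, 8, 2, 0 and 1, beside 4.59%, 5.69%, 4.13%, 2.8% and 3.4%. The smallest adjusted p of any member was 0.202.

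The summed level of the members overlapped between groups, with 1 exception in VNO. In MOE the summed FPKM of the members was 5403 ± 759 in SF, 5100 ± 308 in SM, 5015 ± 282 in CF and 4607 ± 1297 in CM (SD, n = 3), the last with MOE-CM3 at 3122 beside 5175 and 5523. In VNO it was 2695 ± 173, 2855 ± 187, 3071 ± 258 and 2918 ± 255, and in OB 6118 ± 796, 6276 ± 310, 5989 ± 875 and 6673 ± 395. The exception was SF against CF in VNO, where the SF libraries held 2504, 2739 and 2841 and the CF libraries 2970, 3364 and 2878, all above SF. VNO-CF2 was the highest VNO library for 45 of 88 members, or 51.1%, against 17.6% of all genes tested. VNO-SF1, the lowest for 31, also had the fewest estimated fragments in VNO (3371765). Leaving out either library cannot make the sums of SF and CF overlap, so that step says nothing about the gap. The summed level of 5 erythroid genes was 450.5, 704 and 494 FPKM in SF and 644, 1543 and 1040 in CF, and its part in the difference was not tested. By the study's figures, all SF pools of VNO had higher RNA integrity numbers than all CF pools. VNO-SF1 had the lowest share of concordantly aligned read pairs in VNO and VNO-CF2 the highest. The part of these library traits in the gap was not tested either. The median standard error of a difference was 0.14 in OB, 0.24 in MOE and 0.13 in VNO on the log2 scale. The median difference of the members ran from -0.15 (VNO, SF minus CF, 76 of 88 lower in SF), where all genes stood at -0.10, to 0.17 (MOE, SM minus CM), where all genes stood at 0.17 too. Both ends depended on single libraries and on the scaling. The former was -0.39 with TPM rescaling (all genes -0.32), -0.03 under quantile normalization (all genes 0), -0.08 without VNO-SF1 and -0.09 without VNO-CF2. The latter was 0.01 with TPM rescaling, -0.03 under quantile normalization and -0.07 without MOE-CM3, where all genes stood at -0.02, and 0.29 and 0.33 without MOE-CM1 and MOE-CM2. Without MOE-CM3 the members' median also turned from 0.14 to -0.11 for CF minus CM in MOE and from -0.09 to 0.17 for the interaction. At this spread, differences of more than 2-fold in MOE went uncalled, such as those of Cox6c (1.11 ± 0.29, SF minus CF) and Atp5l (1.37 ± 0.53, SF minus SM).

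**Figure D5:**
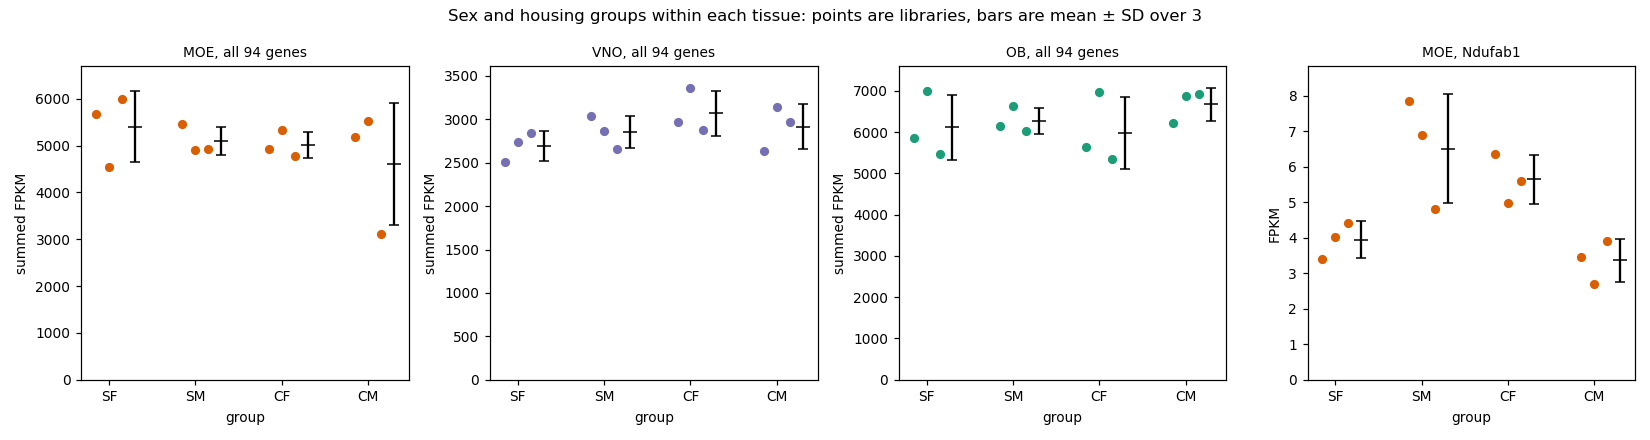
Summed FPKM of the 94 genes (vertical axis, from 0) in the 4 sex and housing groups of each tissue, and FPKM of Ndufab1 in MOE, with the 3 libraries of each group as points and the mean ± SD as bars. The sums overlap between groups except for SF and CF in VNO, the lowest MOE point is MOE-CM3, and Ndufab1 is higher in SM and CF than in SF and CM.

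The members with the smallest p in each comparison are given by value, none having passed. In MOE, Ndufab1, the mitochondrial acyl carrier protein that is also a subunit of complex I, led 4 of the 5 comparisons. Its level there is the sum of a coding and a non-coding transcript. Its SF libraries held 3.39, 4.02 and 4.42 FPKM, its SM libraries 7.85, 6.89 and 4.82, its CF libraries 6.36, 4.99 and 5.59 and its CM libraries 3.46, 2.70 and 3.93. SF and SM did not overlap, nor did CF and CM, and the directions were opposite, with SF minus SM at -0.64 ± 0.19 and CF minus CM at 0.68 ± 0.19. The interaction was -1.32 ± 0.27 (limma, unadjusted p = 0.000162, adjusted p = 0.202), and -1.42 ± 0.25 without MOE-CM3 (adjusted p = 0.113, limma). Cox6c, a small complex IV subunit with 2 near-identical processed pseudogenes, held 119, 82.6 and 96.4 FPKM in SF, 49.2, 58.2 and 56.2 in SM, 42.3, 43.3 and 50.3 in CF and 70.1, 57.7 and 26.6 in CM. SF lay above each other group without overlap, at 0.85 ± 0.29 against SM and 1.11 ± 0.29 against CF (adjusted p = 0.896 and 0.667). Atp5l (SF minus SM 1.37 ± 0.53), Atp5md (SF minus CF -0.62 ± 0.21), Cox5b and Atp5e (SM minus CM 0.90 ± 0.27 and 0.66 ± 0.25, interaction -0.97 ± 0.39 and -0.90 ± 0.35), and Ndufa11 and Ndufs6 (CF minus CM 0.36 ± 0.17 and 0.53 ± 0.25) came next. Without MOE-CM3, SM minus CM was 0.61 ± 0.24 for Cox5b and 0.52 ± 0.22 for Atp5e, and CF minus CM was 0.23 ± 0.13 for Ndufa11 and 0.20 ± 0.18 for Ndufs6.

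With library weights (limma's arrayWeights), which gave MOE-CM3 a weight of 0.0503 and the SF libraries of MOE weights of 5.64, 0.228 and 0.801, so that the weighted SF mean rests largely on MOE-SF1, MOE calls came to 22 members for SF against SM, 25 for SF against CF and 29 for the interaction, beside 13.2%, 16.2% and 17.6% of all genes. Weighted MOE calls for SM against CM were Cycs (-0.62) and Ndufab1 (0.90), beside 0.378% of all genes. In OB, where OB-SM3 (6.2) and OB-CM2 (5.59) carried the highest weights, the weighted calls were 3 for SF against SM (11% of all genes), namely Cox6a1, Ndufab1 and Ndufs7, all lower in SF, then 9 for CF against CM (5.38%), Ndufb11 among them, and 20 for SM against CM (24.6%). In the other comparisons, all 5 of VNO included, the weighted count was 0. For the interaction in MOE, the members' median was 0.26 with weights and -0.09 without. Without MOE-CM3 and without weights 1 member was called, Cox6c for SF against CF (1.11, adjusted p = 0.0134, limma), beside 0.087% of all genes. The members named here under weights were chosen after their values were seen.

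In VNO the smallest p belonged to Ndufa13 and Cox6a1 for SF minus CF (-0.52 ± 0.13 and -0.38 ± 0.10, adjusted p = 0.369 for both, limma), followed by Atp5d (-0.33 ± 0.09). The other leading members were Cycs, Ndufa1 and Ndufaf6 for SF minus SM (-0.38 ± 0.15, -0.34 ± 0.14 and -0.36 ± 0.16), Cox6c, Ndufaf7 and Sdhc for CF minus CM (0.37 ± 0.12, -0.21 ± 0.09 and 0.20 ± 0.09) and Ndufaf2, Cox8b and Ndufs7 for SM minus CM (0.41 ± 0.15, 0.60 ± 0.29 and -0.27 ± 0.13). For the interaction they were Cox6a1, Ndufa13 and Ndufa5 (-0.35 ± 0.14, -0.45 ± 0.18 and -0.29 ± 0.13).

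In OB, Ndufb11, a membrane arm subunit of complex I, led CF minus CM (-0.59 ± 0.16, adjusted p = 0.56, limma), SM minus CM (-0.35 ± 0.16) and the interaction (0.59 ± 0.22). Cox7c and Ndufv1 followed for CF minus CM (-0.44 ± 0.16 and -0.31 ± 0.12). For SF minus SM the smallest p were those of Ndufaf8, Cox6b2 and Atp5g1 (-0.27 ± 0.11, -0.62 ± 0.29 and -0.17 ± 0.10), and for SF minus CF those of Cox6c, Cox7a1 and Cox6b2 (-0.24 ± 0.14, -0.60 ± 0.35 and -0.48 ± 0.29). Cox6b2 and Atp5e also stood among the first 3 for SM minus CM (0.53 ± 0.29 and -0.26 ± 0.15) and for the interaction (-1.01 ± 0.42 and 0.46 ± 0.22).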

How the data were processed

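RNA of pooled C57BL/6 mice was depleted of ribosomal RNA and sequenced in pairs as stranded total RNA libraries. According to the submitters' processing notes, TopHat2 (2.1.0) aligned the reads to mm9 and Cufflinks (2.2.1.0) and Cuffdiff followed. The authors deposited 1 table per library with FPKM and its confidence limits for each RefSeq transcript, normalized by length and library size. Of 39610 accessions 39497 (99.7%) matched a symbol of RefSeq's gene table, transcripts of a gene were summed, and 7 of the genes common to all libraries were left out because an estimate was not marked OK. The tables hold no raw counts. Fragments per entry were estimated as (FPKM / SE) squared, with the upper limit taken as 2 SE above FPKM. The members and gene lists were chosen with earlier results of these data known.

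Genes with a mean of at least 0.5 FPKM were tested as log2(FPKM + 0.5) with limma 3.58.1 in R 4.3.3, with the 12 groups in 1 fit for tissues and the 4 groups of each tissue in a fit of their own for sex and housing. The Benjamini-Hochberg adjustment ran over all genes tested, and a gene was called at an adjusted p under 0.05. The fit was tested on simulated data. Processed pseudogenes were called near-identical at 95% identity (blastn 2.17.0, GENCODE). Genes named were the alternative subunit forms, the catalytic subunits, the 5 largest called differences without overlap per tissue comparison and direction, the 3 smallest p within tissues, the extremes of each complex, members listed at 0, and the 2 largest differences in each gene list. Under these rules 1 member is not reported by name here. Same-numbered SF and SM libraries of VNO deviated together (correlations of 0.127, 0.162 and 0.202), so a fit with the replicate number as a block was also run. The notes on mice per pool differ between sources. P-values measure the spread between pools.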

Additional observations from a re-analysis of the deposited data

Results flagged for a closer look

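Ndufab1 in MOE differed by sex in opposite directions in the 2 kinds of housing, with all 3 SF libraries below all 3 SM libraries and all 3 CF libraries above all 3 CM libraries, and equally by housing in opposite directions in the 2 sexes. The interaction of sex and housing was -1.32 ± 0.27 on the log2 scale and did not pass the test across genes (limma, adjusted p = 0.202). Of all genes tested in MOE, 0.487% showed such opposite and non-overlapping differences by sex and 0.436% by housing, and Ndufab1 was the 1 member that did. The gene rests on an estimated 53.5 to 107 fragments per MOE library and has 2 near-identical processed pseudogenes, whose part in the difference was not tested. Of its listed transcripts, a non-coding one carried 2.75 ± 1.87 FPKM in MOE (0 to 5.91, at 0 in 2 libraries). The main coding one carried 2.12 ± 0.511 (1.57 to 3.39). The difference is that of their sum, and the groups were not tested by transcript.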

How the results depend on the processing

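For differences between tissues, pseudocounts of 0.1 and 1, no filter on low values, a fit of only the 24 libraries compared, and TPM rescaling kept the number of members called within 1.5 times. Quantile normalization turned MOE minus VNO for Cox5a (-0.006), Cox7a2l (-0.173), Cox8a (-0.148), Atp5g1 (-0.196), Atp5g3 (-0.049), Sdha (-0.101), Sdhc (-0.035) and Uqcrc1 (-0.123), MOE minus OB for Uqcrc2 (-0.144), and VNO minus OB for Cox7a2l (0.208) and Ndufv3 (0.082). Upper quartile scaling turned MOE minus VNO for Atp5g1 (-0.221) and VNO minus OB for Cox7a2l (0.136) and Ndufv3 (0.043). Within single groups, MOE minus VNO turned for Atp5g1 (CF -0.21, CM -0.013), MOE minus OB for Cox4i2 (SM 0.246, CF 0.097), Cox6b1 (SF 0.004), Cox7b (SF 0.115), Ndufs1 (SF 0.004) and Uqcrc2 (CM -0.136), and VNO minus OB for Ndufa4l2 (SM -0.139). MOE minus OB for Ndufa4l2 was 0.0 within CF, where it is listed at 0 in both tissues. The cause was not tested for any of these. Members called between MOE and OB numbered 32 within SM and 31 within CF, with fewer libraries compared, against 57. The shares of all genes within SM and CF are not given here.

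Leaving out 1 library at a time gave 87 to 87 members for MOE against VNO, 56 to 63 for MOE against OB, 86 to 87 for VNO against OB and 0 to 1 for SF against CF in MOE, the 1 without MOE-CM3. It turned the small differences of Atp5g1 (MOE minus VNO, -0.003 to 0.102), Cox4i2 (MOE minus OB, -0.104 to 0.036) and Uqcrc2 (MOE minus OB, -0.014 to 0.104) for 1 to 6 of the libraries left out. Library weights gave 22 (SF against SM), 29 (interaction), 25 (SF against CF) and 2 (SM against CM) members in MOE, and 3 (SF against SM), 9 (CF against CM) and 20 (SM against CM) in OB. Without the 5 highest members the sums were 4531 FPKM in OB, 3907 in MOE and 2195 in VNO, and leaving out 1 library gave mean sums of 6196 to 6347, 4944 to 5205 and 2841 to 2919 in this order. The counts of members without overlap, and of those called within CM, without MOE-CM3 were added after the data were seen.

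The tissues came from the same mice, but no source used here says that pools of 1 number hold the same mice. Deviations of same-numbered libraries correlated at -0.238 to 0.162 between tissues and -0.14 to 0.273 within them. With the replicate block 87, 57 and 86 members were called for the 3 tissue comparisons and 0 within tissues, SF against SM in VNO included, so it changed no call there.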
